A study of Mus musculus with 6 samples.

Results

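Imprinted genes are genes of which mainly the copy from 1 parent is transcribed, and 37 of them were examined here, chosen by symbol and grouped by the chromosomal locus they share. Of the 37 listed genes, 36 had a row among the 38918 genes of the deposited table, and Kcnq1ot1 was not analysed here. A mean of at least 1 FPKM over all libraries was reached by 28 of the 36, which were tested, and the other 8 are described by their values. FPKM counts sequenced fragments per kilobase of transcript and relative to all mapped fragments of a library, so that levels can be compared between genes.

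RNA was sequenced from whole hearts of C57/BL6 mouse embryos at embryonic day 11.5. The conditional knockout embryos carried Nfatc1Cre and 2 floxed alleles of Tek, which encodes the angiopoietin receptor Tie2, and the control littermates carried 1 floxed and 1 wild-type allele. Floxed Tek is thus present in both groups, the Cre acts where Nfatc1 is expressed, mainly the endocardium, and the labels do not say whether controls carry the Cre. Each group had 3 libraries, made from RNA of 18 hearts that was pooled per genotype and then divided according to the series text, so each p-value reflects only variation among these libraries. Xist, which is read only where there are 2 X chromosomes, stood at 32.9, 0.0295 and 0.0324 FPKM in conditional knockout libraries and at 8.997, 40.7 and 0.0171 FPKM in control libraries. Equal portions of 1 pool would not give such values, so what stands behind a library is unclear. The Y-linked gene Eif2s3y stood at 34.1, 52.8 and 55.6 FPKM in conditional knockout libraries and at 17.7, 20.0 and 41.0 FPKM in control libraries. Ddx3y, Kdm5d and Uty, also Y-linked, had the higher mean in conditional knockouts too, and each of these genes overlapped between groups. The part of embryo sex in the values below was not tested.

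Imprinting is set by DNA methylation that is laid down at a control region in the egg or the sperm and then kept in the embryo. Neighbouring genes often share 1 control region, and a long non-coding RNA is commonly read from the opposite parental copy to the protein-coding genes. Many imprinted genes act on fetal growth: Igf2, read from the paternal copy, promotes it, while Cdkn1c, Grb10 and Igf2r, read from the maternal copy in most fetal tissues, limit it. The values here sum both parental copies, so a change in imprinting and a change in transcription of the active copy cannot be told apart.

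Several of these loci also encode microRNAs, and a few are shown: those within H19, Igf2 and Mest, since these hosts are the most abundant members, and the pair opposite Rtl1, an example of a microRNA read from the other strand of an imprinted gene. The mature sequences come from RefSeq (GRCm38.p6), with capitals marking the seed, bases 2 to 8 from the 5′ end, which pairs with target RNAs.
miR-675-5p, in H19: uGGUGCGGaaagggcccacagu
miR-675-3p, in H19: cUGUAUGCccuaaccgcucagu
miR-483-5p, in Igf2: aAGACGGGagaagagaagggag
miR-483-3p, in Igf2: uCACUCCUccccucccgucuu
miR-335-5p, in Mest: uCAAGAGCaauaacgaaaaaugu
miR-335-3p, in Mest: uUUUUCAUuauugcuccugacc
miR-127-5p, opposite Rtl1: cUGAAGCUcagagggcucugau
miR-127-3p, opposite Rtl1: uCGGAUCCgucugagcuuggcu
No seed was shared among these 8. Mirg spanned 14 annotated microRNA hairpins on its own strand, Rian 3, and the strand opposite Rtl1 carried 6. The table holds no mature microRNAs, so only host transcripts are reported.

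The heart expressed imprinted genes over a wide range. H19, a long non-coding RNA, averaged 5172 FPKM over the 6 libraries and Igf2, the fetal growth factor, averaged 1967 FPKM. Together with Mest, at 1016 FPKM, they were the 3 members above 1000 FPKM, and these 3 held 72.9% to 74.6% of the summed FPKM of all members in conditional knockout libraries and 75.1% to 77.7% in control libraries. H19 ranked 9, 12 and 13 by level among all genes in the conditional knockout libraries and 5, 3 and 6 in the control libraries. These ranks do not depend on H19 alone, since the globin genes Hbb-y and Hba-x stood above it in conditional knockouts and at 0 in every control. A further 9 members lay between 100 and 1000 FPKM, 13 between 10 and 100, and 3 between 1 and 10. The closest member inside the filter was Zrsr1, at 2.61 FPKM, and the closest outside it was Mkrn3, at 0.801 FPKM.

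**Figure D1:**
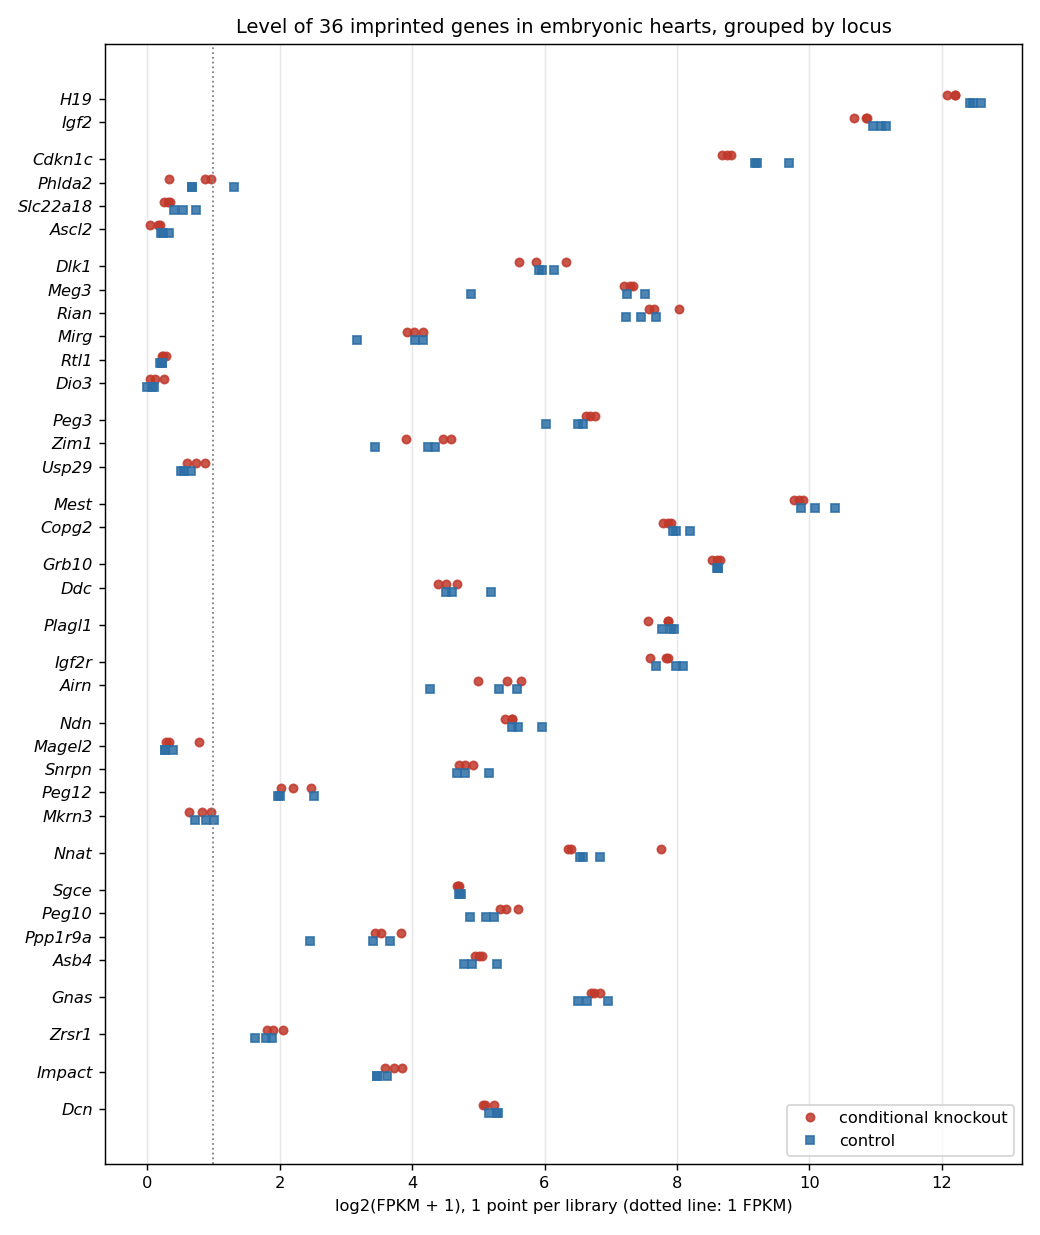
Level of the 36 imprinted genes on the log2(FPKM + 1) scale, with 1 point per library, conditional knockout above control within each gene and genes grouped by locus. H19, Igf2 and Mest are the highest, 8 genes lie under a mean of 1 FPKM, and for most genes the points of both groups lie over each other.

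Facts of the libraries that touch these results are as follows. Tek stood at 3.38, 3.13 and 3.13 FPKM in conditional knockout libraries, against 22.4, 25.7 and 16.6 FPKM in control libraries. All 7 cardiomyocyte markers were detected, with summed levels of 5782 to 9391 FPKM in conditional knockout libraries and 7852 to 9287 FPKM in control libraries. The 7 endothelial and endocardial markers summed to 149 to 184 FPKM in conditional knockout libraries and 217 to 244 FPKM in controls, with none at 0. Of these, 6 were lower without overlap, and only Npr3 passed, at a log2 fold change of -1.15 (limma's adjusted p = 0.0042). Emcn overlapped between groups, with means of 48.6 FPKM in conditional knockouts and 45.6 FPKM in controls. The 6 erythroid markers summed to 32714 to 49960.5 FPKM in conditional knockout libraries and 4306 to 7873 FPKM in controls, a gap made by Hbb-y and Hba-x alone, which were listed at 0 in every control. The other 4 erythroid markers overlapped between groups, and Hbb-bh1, Alas2 and Epor had the lower mean in conditional knockouts. Liver markers were uneven within groups, at 2.66 to 243.9 FPKM in conditional knockout libraries and 22.6 to 89.96 FPKM in controls. The part of these differences in the values below was not tested except where stated, and in whole hearts fewer cells of a type and less RNA per cell cannot be told apart.

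No imprinted gene passed the threshold between conditional knockout and control hearts. Of 28 tested members, 0 fell and 0 rose (limma, p under 0.05 after Benjamini-Hochberg adjustment), against a background of 0.177% called among the 12988 genes tested, 0.123% lower and 0.0539% higher. At an unadjusted p under 0.05 there were 3 members, Cdkn1c and H19 lower and Peg10 higher, against 6.68% of all genes tested, 4.37% lower and 2.31% higher. The median log2 fold change, conditional knockout minus control, was -0.00095 over the 28 members and -0.01 over all genes tested, and 14 members lay below 0 and 14 above. The libraries of both groups did not overlap for 7 members, 5 lower and 2 higher in conditional knockouts, against 13.4% of all genes tested, 8.17% lower and 5.23% higher. These 7 were H19, Igf2, Cdkn1c, Copg2 and Sgce, all lower, and Peg3 and Peg10, both higher. Missing the threshold with 3 libraries per group does not show that the levels were equal, and the 95% confidence intervals below give the sizes the data allow.

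**Figure D2:**
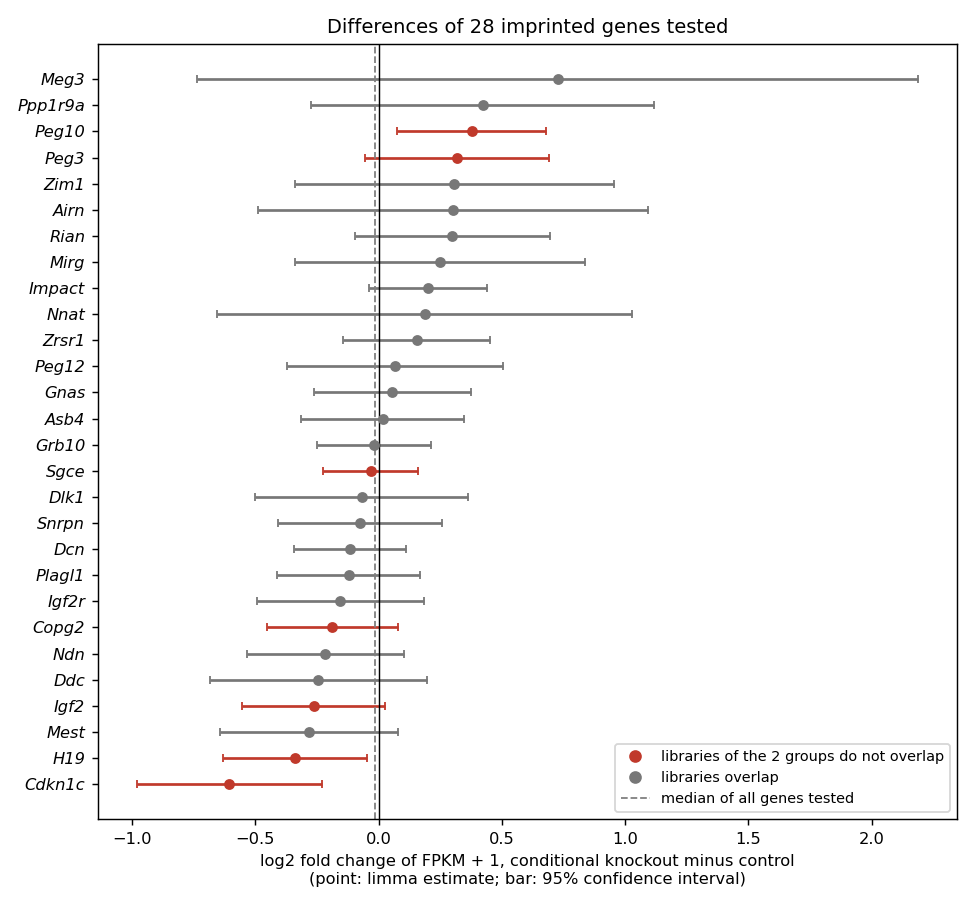
Log2 fold change of FPKM + 1, conditional knockout minus control, for the 28 imprinted genes tested, as limma estimates with 95% confidence intervals, ordered by size. Cdkn1c lies lowest at -0.60 and Meg3 highest at 0.73 with the widest interval, and red marks the 7 genes whose libraries do not overlap between groups.

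H19 and Igf2 lie on distal chromosome 7, at 142575529 to 142578143 and 142650766 to 142666816 (GRCm38), both on the minus strand. They share enhancers and 1 control region that is methylated on the paternal copy, where Igf2 is read, and open to the insulator protein CTCF on the maternal copy, where H19 is read. H19 stood at 4313, 4702 and 4684 FPKM in conditional knockout libraries, against 5689.9, 6147 and 5497 FPKM in control libraries. All 3 conditional knockout libraries lay below every control. The means were 4566 ± 219.7 FPKM in conditional knockouts and 5778 ± 334 FPKM in controls (SD, n = 3 each), which gave a log2 fold change of -0.34 ± 0.12 (SE, limma's adjusted p = 0.742, 95% confidence interval -0.63 to -0.05).

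Igf2 was lower as well in each conditional knockout library. It stood at 1853, 1876 and 1636 FPKM in conditional knockout libraries and at 2165, 2279 and 1994 FPKM in control libraries, so that the groups did not overlap. The log2 fold change was -0.26 ± 0.12 (SE, limma's adjusted p = 0.772, 95% confidence interval -0.56 to 0.03). Under quantile normalization Igf2 passed, at -0.64 (adjusted p = 0.0478, against 0.45 to 0.999871 in its other alternatives), and H19 stood at -1.10 (adjusted p = 0.112). That method sets a value by its rank, and Igf2 ranked 21, 23 and 22 in conditional knockout libraries and 15 in each control. The globin genes Hbb-y and Hba-x, listed at 0 in every control, stood above both genes in conditional knockout libraries only. Their part in these 2 values was not tested. With the libraries rescaled to equal sums of all genes other than globins, the log2 fold changes were -0.38 for H19 and -0.31 for Igf2 (adjusted p = 0.395 and 0.497).

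The ratio of these neighbours overlapped between groups. H19 stood at 2.33, 2.51 and 2.86 times the Igf2 level in conditional knockout libraries and at 2.63, 2.70 and 2.76 times in control libraries. The conditional knockout ratios lay on both sides of the control ratios. Reads of Igf2 can include those of Igf2os, a transcript of the opposite strand that overlaps it by 7124 bases and averaged 17.9 FPKM, since no strand setting is given.

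The adjoining domain on distal chromosome 7 is silenced on the paternal copy by the non-coding RNA Kcnq1ot1. Its most abundant member was Cdkn1c, at 143458339 to 143461050, which encodes the cell cycle inhibitor p57 and is known from trabecular muscle of the mouse embryonic heart. Cdkn1c stood at 408, 449 and 429.8 FPKM in conditional knockout libraries, against 823, 587 and 575 FPKM in control libraries. No conditional knockout library reached a control, and control replicate 1 was far above the other controls. The fitted log2 fold change was -0.60 ± 0.16 (SE, limma's adjusted p = 0.498, 95% confidence interval -0.98 to -0.23), the lowest of the 28 members. Without control replicate 1 it was -0.44 (adjusted p = 0.413), and within replicates 2 and 3 alone -0.40 (adjusted p = 0.291).

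The other 3 measured genes of the domain were under 1 FPKM and were not tested. Slc22a18, which encodes a membrane transporter, stood at 0.246, 0.267 and 0.194 FPKM in conditional knockout libraries and at 0.668, 0.329 and 0.460 FPKM in control libraries. Ascl2, a transcription factor gene of the placenta, stood at 0.144, 0.126 and 0.0274 FPKM in conditional knockout libraries and at 0.255, 0.153 and 0.178 FPKM in control libraries. Both were low everywhere and their groups did not overlap. Phlda2, a growth-limiting gene best known in the placenta, had 0.951, 0.826 and 0.256 FPKM in conditional knockout libraries and 1.47, 0.601 and 0.593 FPKM in control libraries, which overlapped. Over both domains of distal chromosome 7, all 6 measured members had the lower mean in conditional knockouts, and the 3 tested ones did not overlap, a separation that 8.17% of all genes tested showed in that direction.

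**Figure D3:**
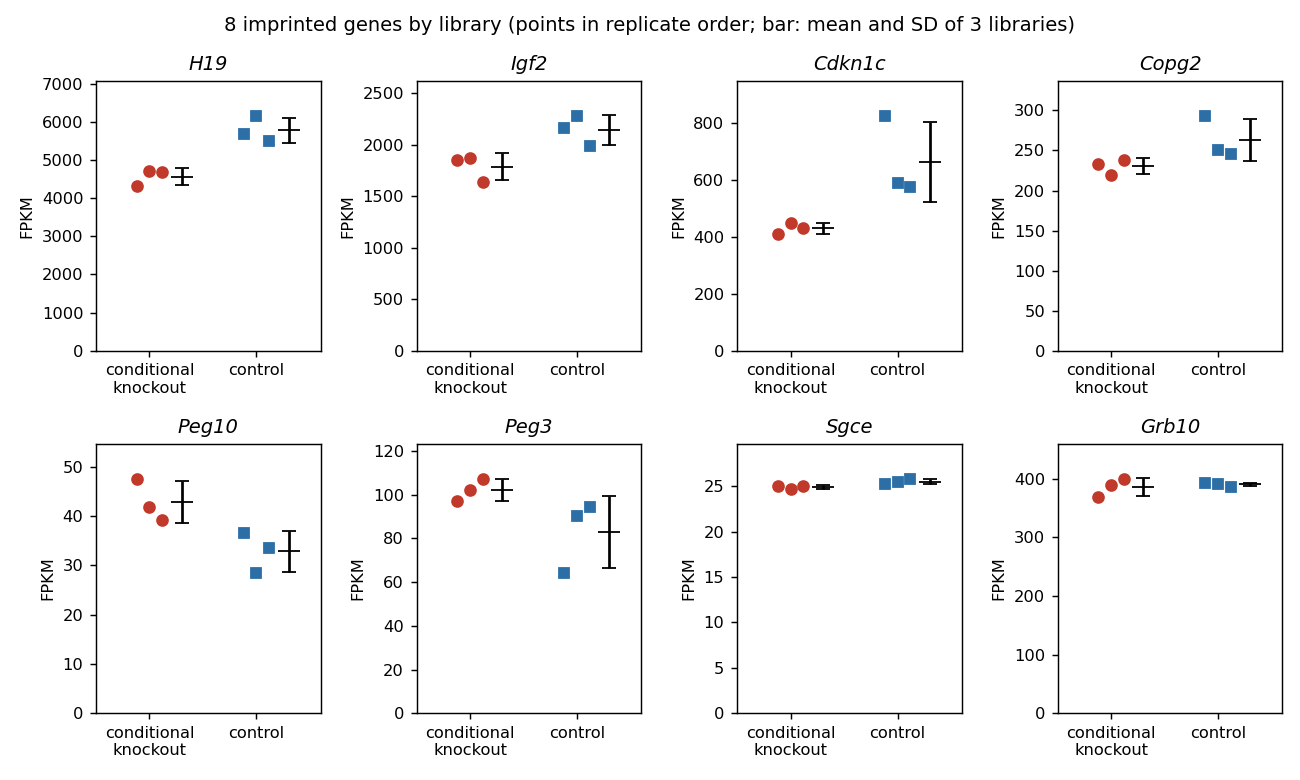
FPKM of 8 imprinted genes in each library, conditional knockout left of control, with axes from 0 and the mean and SD of 3 libraries beside the points. H19, Igf2, Cdkn1c and Copg2 are lower and Peg10 and Peg3 higher in every conditional knockout library, the separation of Sgce is very small, and the groups overlap for Grb10.

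The Dlk1-Dio3 locus on chromosome 12 has protein-coding genes read from the paternal copy and long non-coding RNAs, Meg3, Rian and Mirg, read from the maternal copy. Dlk1, which encodes a membrane protein related to Notch ligands, stood at 57.2, 79.4 and 47.9 FPKM in conditional knockout libraries and at 59.3, 69.7 and 61.0 FPKM in control libraries. The conditional knockout libraries enclosed the controls, with a log2 fold change of -0.07 ± 0.18 (SE, limma's adjusted p = 0.962). For Dlk1 this was -0.27 without conditional knockout replicate 2 and 0.09 without conditional knockout replicate 3. Conditional knockout replicate 2 also had the highest sum of liver markers, 243.9 FPKM, against 2.66 to 89.96 FPKM in the other libraries. The part of liver RNA in the Dlk1 level was not tested. Rtl1, a gene derived from a retrotransposon, lay at 0.164 to 0.214 FPKM in conditional knockout libraries and 0.145 to 0.165 FPKM in control libraries. Dio3, which inactivates thyroid hormone, lay at 0.0307 to 0.197 FPKM in conditional knockout libraries and 0 to 0.0761 FPKM in control libraries.

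The 3 non-coding RNAs of the locus were well expressed, and Meg3 was set apart by control replicate 1. Meg3 stood at 155, 161 and 146 FPKM in conditional knockout libraries and at 28.6, 150.6 and 183 FPKM in control libraries. Its log2 fold change was 0.73 ± 0.62 (SE, limma's adjusted p = 0.827) and turned to -0.10 without control replicate 1. Rian stood at 259.9, 201 and 189.6 FPKM in conditional knockout libraries and at 149, 174 and 204 FPKM in control libraries, with a log2 fold change of 0.30 ± 0.17 (SE, limma's adjusted p = 0.798). For Rian this was 0.16 without conditional knockout replicate 1, 0.19 without control replicate 1 and 0.05 within replicates 2 and 3. The groups overlapped for both genes. Mirg stood at 16.9, 15.3 and 14.2 FPKM in conditional knockout libraries and at 7.97, 15.6 and 16.9 FPKM in control libraries, and its log2 fold change of 0.25 became -0.07 without control replicate 1. The level of Meg3 was 0.60, 0.80 and 0.77 times that of Rian in conditional knockout libraries, against 0.19, 0.87 and 0.89 times in control libraries.

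The Peg3 locus on chromosome 7 holds Peg3, a zinc finger gene read from the paternal copy, from 6703892 to 6730431. Peg3 stood at 97.4, 102 and 107 FPKM in conditional knockout libraries, against 64.1, 90.1 and 94.6 FPKM in control libraries. Every conditional knockout library lay above every control, with control replicate 1 the lowest. The log2 fold change was 0.32 ± 0.16 (SE, limma's adjusted p = 0.773, 95% confidence interval -0.05 to 0.69) and was 0.15 without control replicate 1 (adjusted p = 0.724). Zim1, a zinc finger gene of the same locus read from the maternal copy, stood at 13.98, 21.1 and 23.1 FPKM in conditional knockout libraries and at 9.86, 17.97 and 19.4 FPKM in control libraries. These overlapped, with a log2 fold change of 0.31 ± 0.28 (SE, limma's adjusted p = 0.835) that was 0.02 without control replicate 1 and 0.23 within replicates 2 and 3. In each of the 3 same-numbered pairs of libraries Zim1 was higher in the conditional knockout. Among members whose groups overlapped, Airn, Ppp1r9a, Zrsr1 and Impact were also higher in each pair, and Mest, Igf2r, Ndn and Dcn were lower in each. The share of all genes tested with the same direction in every pair was not computed, and the labels name no pairing.

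Usp29 is also read from the paternal copy and starts next to Peg3 in the opposite direction, yet its level was far lower. It stood at 0.672, 0.524 and 0.837 FPKM in conditional knockout libraries and at 0.431, 0.475 and 0.591 FPKM in control libraries. The Usp29 level was 0.0051 to 0.0078 times that of Peg3 in conditional knockout libraries and 0.0053 to 0.0067 times in control libraries. The interval between both start sites, as RefSeq places them, is shown because a single stretch of 163 bases separates a gene near 100 FPKM from one under 1 FPKM. It is taken from RefSeq's promoter windows (GRCm38.p6), at chr7:6730420-6730582 on the plus strand, with the RefSeq start of Peg3 just left of it, at 6730419, and that of Usp29 just right of it, at 6730583, and capitals mark each CG, the dinucleotide that carries DNA methylation. The gene spans given by GENCODE place these starts a few bases further in, at 6730431 for Peg3 and 6730578 for Usp29.
Peg3-Usp29 interval: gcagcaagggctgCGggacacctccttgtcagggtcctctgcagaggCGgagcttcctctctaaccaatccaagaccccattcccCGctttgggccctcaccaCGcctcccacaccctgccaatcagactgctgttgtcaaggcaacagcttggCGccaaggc
The interval holds 5 CG, and 47.0% of all RefSeq promoters hold at least 5 in the 163 bases before their start. Neither the GC box GGGCGG nor the TATA sequence TATAAA occurs in it on either strand, while 29.4% and 8.13% of all promoters hold them in that length.

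Mest and Copg2 lie on opposite strands of chromosome 6, from 30723547 to 30748465 and 30747554 to 30896794, and overlap by 912 bases at their ends. Mest, read from the paternal copy, encodes a protein related to hydrolases, and Copg2 encodes a subunit of the vesicle coat. Mest stood at 952, 868 and 914.5 FPKM in conditional knockout libraries and at 1342, 1084 and 936 FPKM in control libraries. The groups overlapped through conditional knockout replicate 1 and control replicate 3, and the log2 fold change was -0.28 ± 0.15 (SE, limma's adjusted p = 0.789), which was -0.14 without control replicate 1. Copg2 stood at 233, 219 and 239 FPKM in conditional knockout libraries and at 293, 251 and 245 FPKM in control libraries. These did not overlap, with a log2 fold change of -0.19 ± 0.11 (SE, limma's adjusted p = 0.808) that was -0.11 without control replicate 1. Without a stated strand setting, reads from the shared bases cannot be assigned to Mest or Copg2.

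Grb10 and Ddc are neighbours on chromosome 11, and Grb10 encodes an adaptor that dampens insulin and insulin-like growth factor receptors. Grb10 was among the steadiest members, at 368, 388.5 and 399.5 FPKM in conditional knockout libraries and 392.4, 391.6 and 386.5 FPKM in control libraries. The 95% confidence interval of its log2 fold change, -0.02, ran from -0.25 to 0.21. Ddc encodes the enzyme that makes dopamine and serotonin and is known for a heart transcript read from the paternal copy in mouse embryos. It stood at 21.9, 19.9 and 24.5 FPKM in conditional knockout libraries and at 35.5, 21.8 and 23.4 FPKM in control libraries, which overlapped. The log2 fold change of Ddc was -0.24 ± 0.19 (SE, limma's adjusted p = 0.815), and without control replicate 1 it was -0.03.

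Plagl1, a zinc finger gene on chromosome 10 that in mouse regulates a network of other imprinted genes including Igf2 and H19, did not pass. It stood at 231, 188 and 231 FPKM in conditional knockout libraries and at 218, 239 and 247 FPKM in control libraries, with a log2 fold change of -0.12 ± 0.12 (SE, limma's adjusted p = 0.855) that was -0.02 without conditional knockout replicate 2. Conditional knockout replicate 2 was the lowest of the 6 libraries, and the other libraries of both groups lay over each other.

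Igf2r, on chromosome 17 from 12682406 to 12769664, encodes the receptor that clears the growth factor Igf2 from the cell surface. It is read from the maternal copy, while Airn, a non-coding RNA of the opposite strand, silences it on the paternal copy. Igf2r stood at 193, 227 and 231 FPKM in conditional knockout libraries and at 204, 272 and 252 FPKM in control libraries, with a log2 fold change of -0.15 ± 0.14 (SE, limma's adjusted p = 0.842). For Igf2r this was -0.28 without control replicate 1, -0.07 without control replicate 2 and -0.07 without conditional knockout replicate 1. Airn stood at 30.9, 42.2 and 49.2 FPKM in conditional knockout libraries and at 18.4, 38.7 and 47.1 FPKM in control libraries, with a log2 fold change of 0.30 ± 0.34 (SE, limma's adjusted p = 0.872) that was -0.09 without control replicate 1 and 0.09 within replicates 2 and 3. Airn was higher in the conditional knockout in each of the 3 same-numbered pairs, and Igf2r was lower in each. How many of all genes tested keep 1 direction in every pair was not computed. Both genes overlapped between groups, and they share 28354 bases that reads counted without strand cannot separate.

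**Figure D4:**
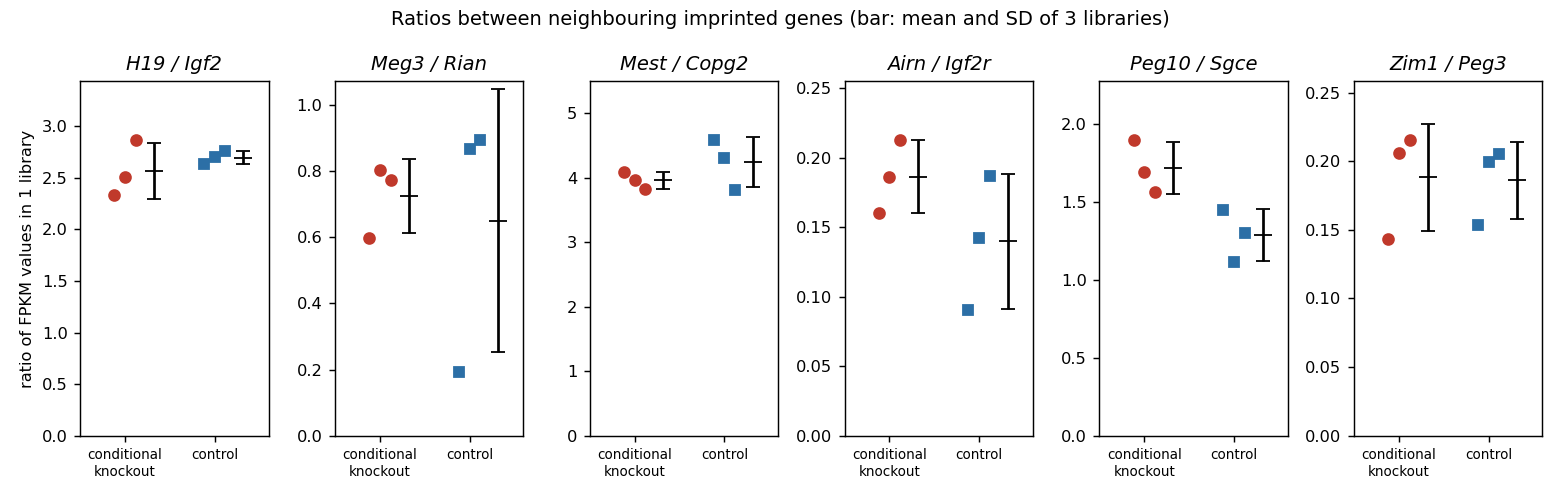
Ratio of the FPKM values of neighbouring imprinted genes within each library, conditional knockout left of control, with axes from 0 and the mean and SD of 3 libraries. The ratio of Peg10 to Sgce, like Peg10 itself, is higher in every conditional knockout library. The other 5 ratios overlap, and control replicate 1 lies far down for Meg3 over Rian.

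The Snrpn-Ndn locus of chromosome 7, whose human counterpart is tied to Prader-Willi syndrome, is read from the paternal copy. Ndn, which encodes the growth suppressor necdin, stood at 44.6, 44.5 and 41.2 FPKM in conditional knockout libraries and at 61.4, 47.3 and 44.5 FPKM in control libraries, with a log2 fold change of -0.22 ± 0.14 (SE, limma's adjusted p = 0.808) that was -0.08 without control replicate 1. Snrpn, which encodes a protein of splicing particles, lay at 25.1 to 29.2 FPKM in conditional knockout libraries and 24.7 to 34.8 FPKM in control libraries. Peg12 lay at 3.08 to 4.53 FPKM in conditional knockout libraries and 2.92 to 4.75 FPKM in control libraries. All 3 overlapped between groups, and the highest value of each was in control replicate 1. Mkrn3, which encodes a ubiquitin ligase, and Magel2, which encodes a partner of such ligases, were under 1 FPKM on average. Mkrn3 lay at 0.553 to 0.959 FPKM in conditional knockout libraries and 0.653 to 1.01 FPKM in control libraries. Magel2 stood at 0.713, 0.213 and 0.261 FPKM in conditional knockout libraries and at 0.21, 0.21 and 0.307 FPKM in control libraries.

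Nnat, on chromosome 2, encodes a small membrane protein best known in brain and lies within the gene Blcap. It stood at 215.6, 80.96 and 83.4 FPKM in conditional knockout libraries and at 114, 94.7 and 91.4 FPKM in control libraries. Conditional knockout replicate 1 was far above all others, and the other conditional knockout libraries were below every control. For Nnat the log2 fold change was 0.19 ± 0.36 (SE, limma's adjusted p = 0.938) and turned to -0.27 without conditional knockout replicate 1. That library also had 11.8 FPKM over the 6 foregut and lung markers, against 1.76 and 1.59 FPKM in the other conditional knockout libraries and 0.661 to 0.872 FPKM in control libraries, with Sftpc at 0 in every library. It had 6.73 FPKM over the 6 body wall and skeletal muscle markers, against 0.966 and 1.11 FPKM in the other conditional knockout libraries and 0.409 to 0.73 FPKM in control libraries, and the part of either in the Nnat level was not tested. Blcap, which overlaps all 2445 bases of Nnat on the other strand, was also highest in that library, at 21.4 FPKM, against 12.3 and 13.1 FPKM in the other conditional knockout libraries and 14.9 to 16.6 FPKM in control libraries.

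The Sgce-Peg10 locus on chromosome 6 held the member with the higher fold change of the 2 that were higher without overlap. Peg10, a gene derived from a retrotransposon and read from the paternal copy, stood at 47.5, 41.9 and 39.1 FPKM in conditional knockout libraries, against 36.6, 28.4 and 33.6 FPKM in control libraries. Every conditional knockout library was above every control. The means were 42.9 ± 4.29 FPKM in conditional knockouts and 32.8 ± 4.15 FPKM in controls (SD, n = 3 each), which gave a log2 fold change of 0.38 ± 0.13 (SE, limma's adjusted p = 0.69, 95% confidence interval 0.08 to 0.68). Sgce, which encodes epsilon-sarcoglycan and starts next to Peg10 on the other strand, hardly varied. It stood at 25.04, 24.7 and 24.98 FPKM in conditional knockout libraries and at 25.3, 25.4 and 25.8 FPKM in control libraries, a separation with a log2 fold change of only -0.03 (95% confidence interval -0.23 to 0.16). The Peg10 level was 1.90, 1.70 and 1.57 times that of Sgce in conditional knockout libraries and 1.45, 1.12 and 1.30 times in control libraries. These ratios did not overlap, but with Sgce so steady they mostly repeat the Peg10 values.

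Ppp1r9a and Asb4 lie downstream in the same region. Ppp1r9a, which encodes the actin-binding protein neurabin, stood at 9.91, 10.6 and 13.2 FPKM in conditional knockout libraries and at 4.51, 9.67 and 11.7 FPKM in control libraries, with a log2 fold change of 0.42 ± 0.30 (SE, limma's adjusted p = 0.815) that was 0.06 without control replicate 1 and 0.14 within replicates 2 and 3. It was higher in the conditional knockout in each of the 3 same-numbered pairs, a trait whose share among all genes tested was not computed. Asb4, a vascular gene of the ubiquitin system, stood at 32.3, 31.1 and 30.03 FPKM in conditional knockout libraries and at 37.98, 26.5 and 28.9 FPKM in control libraries. Both genes overlapped between groups.

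The remaining 4 members, at separate loci, overlapped between groups. Gnas, which encodes the stimulatory G protein alpha subunit, lay at 103 to 113 FPKM in conditional knockout libraries and 90.2 to 124 FPKM in control libraries. It overlaps Gm20721, a gene of the other strand at 899.8 FPKM, by 16394 bases, so its level is uncertain without strand. Zrsr1, which encodes a splicing factor and lies within Commd1, lay at 2.52 to 3.16 FPKM in conditional knockout libraries and 2.11 to 2.68 FPKM in control libraries. Zrsr1 is a retrocopy, so reads shared with its parent gene, or with Commd1 on the other strand at 87.1 FPKM, make its level uncertain. Impact, a regulator of translation, stood at 13.4, 11.1 and 12.2 FPKM in conditional knockout libraries and at 11.2, 10.1 and 10.1 FPKM in control libraries, with a log2 fold change of 0.20 ± 0.10 (SE, limma's adjusted p = 0.778). Dcn, the matrix proteoglycan decorin that is imprinted in mouse placenta, lay at 32.5 to 36.6 FPKM in conditional knockout libraries and 34.8 to 38.4 FPKM in control libraries.

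Among the tested members, control replicate 1 departed most from the other libraries. It was the lowest of the 6 libraries for 9 of the 28 tested members and the highest for 8. Its mean absolute deviation from the 6-library mean of a gene was 0.38 on the log2(FPKM + 1) scale, against 0.15 to 0.19 in the conditional knockout libraries and 0.13 to 0.14 in the other control libraries. The genes lowest there included the long non-coding RNAs Meg3, Airn and Mirg together with Zim1, Peg3 and Ppp1r9a, and those that were highest included Cdkn1c, Ddc, Mest and Ndn. The direction of Meg3, Mirg, Airn, Snrpn and Gnas turned when this library was left out. The counts of lowest and highest values were not taken over all genes tested. Over all genes tested, log2 values of control replicate 1 correlated at 0.943 to 0.968 with other libraries, and those of conditional knockout replicate 1 at 0.949 to 0.968. Mesenchymal markers summed to 238 FPKM in control replicate 1 and 334 to 427 FPKM elsewhere, though Col3a1 was not lowest there. Their part in these values was not tested.

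**Figure D5:**
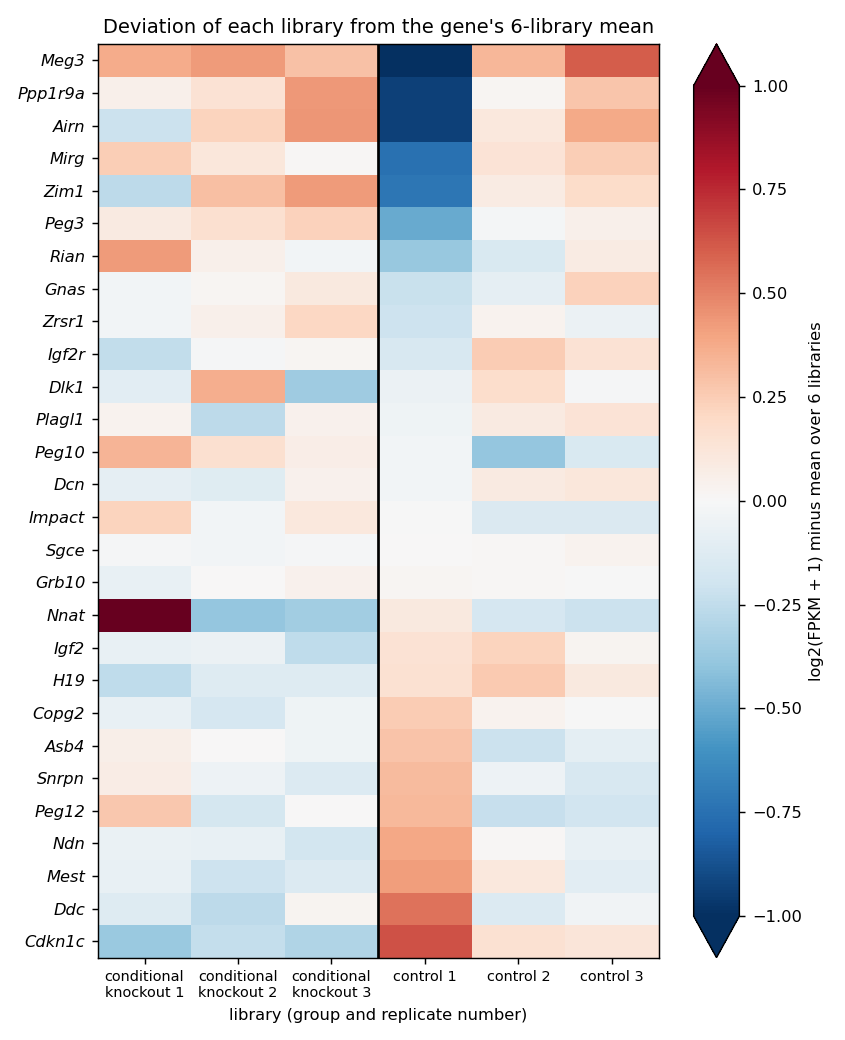
Deviation of log2(FPKM + 1) in each library from the gene's mean over 6 libraries, for the 28 imprinted genes tested, conditional knockout columns left of control columns and genes ordered by control replicate 1. Control replicate 1 has Meg3, Ppp1r9a and Airn lowest and Cdkn1c highest, and Nnat stands out in conditional knockout replicate 1.

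Imprinted genes outside the 37 likewise did not pass. Of 42 listed, 38 had a row and 25 were tested, of which 0 fell and 0 rose, with 19 below 0, 6 above and a median log2 fold change of -0.10, and 1 had an unadjusted p under 0.05, against 6.68% of all genes tested. That gene was Trappc9, which encodes a vesicle trafficking subunit, at 6.06, 6.85 and 5.96 FPKM in conditional knockout libraries and 8.68, 8.999 and 7.53 FPKM in control libraries. The log2 fold change of Trappc9 was -0.37 ± 0.11 (SE, limma's adjusted p = 0.559). The next in size were Tfpi2, a protease inhibitor gene, at 0.32 and Zdbf2, a zinc finger gene, at 0.23.

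Genes that keep or read imprints showed no call either. Of 16 listed, 14 were tested, of which 0 fell and 0 rose, with 10 above 0 and a median of 0.04, and 2 had an unadjusted p under 0.05, Arid4b and, named after its value was seen, the chromatin gene Ezh2 at 0.26, both higher, against 2.31% of all genes tested. Zfp57, the zinc finger protein that guards methylated control regions in the early embryo, stood at 31.2, 28.8 and 34.8 FPKM in conditional knockout libraries and at 12.4, 28.6 and 32.7 FPKM in control libraries, with a log2 fold change of 0.46 ± 0.32 (SE, limma's adjusted p = 0.815). The zinc finger gene Zfp445 was at 0.37 and the chromatin gene Arid4b at 0.38, and control replicate 1 was the lowest library for all 3.

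In the insulin-like growth factor list, 12 of 12 genes were tested, 0 fell and 0 rose, and 6 lay on either side of 0, with 2 at an unadjusted p under 0.05, against 6.68% of all genes tested. Igfbp4, which encodes a binding protein of these growth factors, stood at 113, 141 and 120.3 FPKM in conditional knockout libraries and at 138.9, 205 and 177 FPKM in control libraries, which overlapped, with a log2 fold change of -0.46 ± 0.17 (SE, limma's adjusted p = 0.722). Igfbp3, another binding protein gene, stood at 22.99, 17.1 and 17.8 FPKM in conditional knockout libraries and at 12.7, 13.6 and 15.4 FPKM in control libraries. The groups did not overlap for this gene, and the log2 fold change of Igfbp3 was 0.44 ± 0.14 (SE, limma's adjusted p = 0.634). Irs2, a docking protein gene of the insulin receptor, was at -0.22.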

How the data were processed

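The authors deposited FPKM values for 6 libraries. Per the submitters' processing notes, the tools were TopHat2 2.0.9, Cufflinks 2.2.1, Cuffdiff and HTSeq, with build mm10. The labels state no annotation, strand setting or rule for multi-mapped reads. Read counts were not used here and depth is unknown: among genes under 0.3 FPKM, 8.64% to 14.1% shared 1 ratio in pairs among replicates 2 and 3, and 1.20% to 3.56% in pairs with a replicate 1 library, so no relative depth was taken and replicates 2 and 3 alone were an alternative.

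Values were analysed as log2(FPKM + 1), which understates changes of low genes, with limma 3.58.1 in R 4.3.3 (mean-variance trend, no block, Benjamini-Hochberg, threshold 0.05), over the 12988 genes whose mean reached 1 FPKM, and checked on simulated data. Errors are SD (FPKM) or moderated SE. Every member was named, with genes past the threshold or, failing that, the 3 largest changes of each further list. Members and lists were chosen with earlier results of these data known. Positions come from GENCODE M21 (GRCm38, as mm10), which held 37607 of 38918 identifiers. Deviations of same-numbered libraries correlated at 0.27, 0.11 and 0.44 (12805 genes), against -0.39 to 0.095 for conditional knockout and control libraries of unlike number. The 0.095 was conditional knockout replicate 3 with control replicate 2, close to the 0.11 of the replicate 2 libraries. Deviations within a group constrain each other, so these correlations are not independent. The labels name no pairing, so whether the numbers paired the libraries is unclear, and a fit with that block was an alternative. Alternatives changed the pseudocount, filter, scaling, block and libraries.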

Additional observations from a re-analysis of the deposited data

How the results depend on the processing

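Of 14 alternatives, the rescaling without globin genes was chosen after seeing the data. Of 28 tested members, 17 kept their direction in all alternatives that held them, 11 turned in at least 1, and 1 passed in any (Igf2). Quantile normalization gave 1 lower member, against 0, and turned Grb10 (0.012) and Sgce (0.0056). Within replicates 2 and 3 alone, Meg3 (-0.11), Mirg (-0.13), Grb10 (0.018), Snrpn (0.010), Nnat (-0.18) and Gnas (-0.013) turned, 19 members did not overlap, as did 46% of all genes tested with 2 libraries per group, and 8 genes in all were lower. With no filter 7 genes in all were lower, and without globin genes Asb4 turned (-0.028). The members' median was -0.025 at a minimum of 5 FPKM, 0.033 with quantile normalization, -0.036 within replicates 2 and 3 and -0.046 without globin genes. Over all genes tested, the median was -0.0055 with quantile normalization and -0.054 without globin genes.

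With 1 library left out, the ranges were 4 to 9 genes lower and 6 to 11 higher in all, 8 to 13 members not overlapping (13 without control replicate 1, 12 without conditional knockout replicate 1 or control replicate 3, against 16.8% to 28.1% of all genes tested, since fewer libraries overlap less by construction) and -0.040 to 0.032 for the members' median. The log2 fold changes of members that turned ranged from -0.044 to 0.014 for Grb10, -0.051 to 0.24 for Peg12, -0.27 to 0.43 for Nnat, -0.088 to 0.16 for Asb4, -0.27 to 0.093 for Dlk1, -0.10 to 1.21 for Meg3, -0.065 to 0.43 for Mirg, -0.090 to 0.57 for Airn, -0.17 to 0.067 for Snrpn and -0.042 to 0.18 for Gnas. With the replicate number as a block, 11 genes in all were lower and 6 higher, against 16 and 7, no imprinted gene was called, and no call of these lists changed. The cause of these shifts was not tested.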

Other observations

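Between H19 and Phlda2 on distal chromosome 7, a stretch chosen after its values were seen, 9 genes were tested, and all 9 had a log2 fold change below 0, from -0.60 to -0.04, with a median of -0.16. Among all tested genes 53.4% lay below 0. The 9 included Tspan32, a membrane protein gene, at -0.14, Cd81, which encodes a tetraspanin, at -0.17, Tssc4 at -0.10 and the potassium channel gene Kcnq1 at -0.16, none of which passed or had separated libraries. H19, Igf2 and Cdkn1c were the 3 of the 9 whose libraries did not overlap, against 8.17% of all genes tested that were lower without overlap. The 9 also held Igf2os, at -0.16, which overlaps Igf2 by 7124 bases, and R74862, at -0.04, whose span overlaps that of Cd81. Reads of overlapping genes can be shared, since no strand setting is given. Genes of 1 stretch also share libraries and can share regulation, so they are not independent.

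Split by the parental copy from which a gene is mainly read, as known from textbooks, 7 maternal members were tested, 3 below 0 and 4 above, with a range of -0.60 to 0.73. Of 14 paternal members tested, 7 lay below 0 and 7 above, with a range of -0.28 to 0.38. In 7 members whose imprinting depends on the tissue the range was -0.24 to 0.42.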
